A study of Mus musculus with 17 samples.

Results

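Tal1, Lyl1, Lmo2, Ldb1 and Cbfa2t3 encode 5 proteins that meet in one DNA-bound regulatory complex of blood progenitors. The members were every probe set annotated with exactly 1 of these symbols, which gave 8 probe sets out of the 45101 in the deposited table. Tal1 (1449389_at), Lyl1 (1419120_at), Lmo2 (1454086_a_at) and Ldb1 (1452024_a_at) had 1 probe set each and Cbfa2t3 had 4. All 8 were measured on 17 Affymetrix arrays of 5 progenitor fractions sorted from the bone marrow of adult mice aged 10 to 14 weeks. No genetic change or treatment is named for any group.

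The fractions are defined by their gates. CLP, the common lymphoid progenitors, were Lin- Sca1 low Kit low IL7r+ Flk2+ (3 arrays). The other 4 fractions were Lin- Sca1- Kit+. Among these, preGM, which precede granulocytes and monocytes, were Itga2b- FcgR low Slamf1- Eng low (3 arrays). The common precursors of megakaryocytes and red cells, preMegE, were Itga2b- FcgR low Slamf1+ Eng low (5 arrays). Early erythroid preCFUE cells had the same gate with high Eng (3 arrays), and MkP, the megakaryocyte progenitors, were Itga2b+ Slamf1+ (3 arrays). Whether the arrays of 1 fraction stem from different animals is not said in the labels. The p-values therefore measure the spread between arrays, which may be technical.

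Tal1 (also called Scl) and Lyl1 are closely related basic helix-loop-helix factors that bind E-box DNA as partners of ubiquitous E proteins such as Tcf3. Lmo2 is a LIM-only protein that touches no DNA and bridges the helix-loop-helix pair to a GATA factor, and Ldb1 binds Lmo2 and joins complexes at distant sites by forming dimers. Cbfa2t3 (Eto2) is a corepressor recruited to the complex, best known for holding back erythroid and megakaryocytic genes until maturation. The complex is required to establish blood formation, and in adult marrow it acts with Gata1 or Gata2 in erythroid and megakaryocytic cells.

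Marker sums were highest in the fraction whose label calls for them, while CLP and preGM each showed some, not all, of the other's markers. The summed intensity of 6 lymphoid progenitor markers was 10801 to 17888 in CLP, 2329 to 3579 in preGM and 97.6 to 144 in preMegE. That of 6 granulocyte and monocyte markers was 16673 to 17680 in preGM, 1299 to 1368 in CLP and at most 512 elsewhere. In preGM 3 of the 6 lymphoid markers had means below 32, and the brightest were Dntt (1866) and Flt3 (1090). In CLP 3 of the 6 granulocyte and monocyte markers had means below 32, and the brightest were Mpo (766) and Csf1r (446). These genes were named after their values were seen. The sum of 6 erythroid markers was 16187 to 17854 in preCFUE. For 6 megakaryocyte markers the sum was 11471 to 12565 in MkP and at most 719 on any other array. Itga2b in this list, and Il7r and Flt3 (Flk2) in the lymphoid list, were used in the sort. Part of these 2 sums therefore follows from the gates. On 1 array, CLP replicate 2, the mean correlation was lower with its own fraction (0.948) than with another, the preGM arrays (0.962). It was not the array least like its own fraction, since CLP replicates 1 and 3 had 0.953 and 0.944. Differences of CLP from other fractions are also given without replicate 2 where they are called. That array was picked for its likeness to preGM, so leaving it out can widen differences from preGM by construction. Larger differences or new calls without it are therefore no separate support. The Gapdh 3-prime over 5-prime log2 ratio, a sign of RNA shortening, was 3.00 on replicate 2 and 5.12 and 4.08 on replicates 1 and 3. Its part in the nearness to preGM was not tested. The 75th percentile of intensity was lowest in CLP and MkP (50.6 to 60.9 and 52.0 to 56.9), against 53.4 to 74.4 in preMegE, 58.1 to 65.8 in preCFUE and 60.4 to 68.3 in preGM. Arrays measure pooled RNA, so fewer cells of a type and less RNA per cell cannot be told apart.

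Levels below are RMA intensities, a summary of the probes of each set on a linear scale. Differences are on the log2(intensity + 16) scale, ± the standard error of the limma fit, with p-values adjusted over all 45037 probe sets that are not array controls. A difference passed the test at an adjusted p under 0.05. In a test over all 5 fractions, 4 of the 8 member probe sets passed, those of Tal1, Lyl1, Lmo2 and Ldb1, where 23.7% of all probe sets passed. Tal1 ranked 186 of 45037 by its F statistic of 146 (limma adjusted p = 9.42e-09), and Lyl1 ranked 780 with an F of 48.7 (adjusted p = 3.07e-06). Ldb1 (F of 10.5, adjusted p = 0.00414) and Lmo2 (F of 9.39, adjusted p = 0.00623) followed. None of the 4 Cbfa2t3 probe sets passed, with adjusted p from 0.201 to 0.555.

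Single fractions were then compared in 5 pairs. From preGM to preMegE, 1 of 8 member probe sets rose and 1 fell, where 1.75% of all probe sets rose and 3.46% fell (5.21% together), with a member median of 0.48 beside a median of 0.01 over all probe sets. In MkP against preMegE, 3 of 8 fell and 0 rose, where 3.72% of all fell and 2.56% rose (6.28% together), and the member median was -0.50 beside 0.01. In preCFUE against preMegE, 0 of 8 passed in the limma fit, where 3.04% of all rose and 2.3% fell (5.34% together), no member reached an unadjusted p under 0.05, and the member median was -0.40 beside 0.00. For MkP against preCFUE, 3 of 8 were lower and 0 higher, where 6.6% of all were lower and 3.46% higher (10.1% together), with medians of 0.00 and 0.01. For CLP against preGM, 2 of 8 were lower and 0 higher, where 6.91% of all were lower and 3.9% higher (10.8% together), with medians of 0.04 and 0.03. The arrays of both fractions did not overlap for 3, 3, 2, 5 and 2 of the 8 in these comparisons in turn, against 10.9%, 16.3%, 13.4%, 31.3% and 26.3% of all probe sets. These comparisons share arrays, since preMegE enters 3 of them, and 4 of the 8 member probe sets belong to Cbfa2t3.

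**Figure D1:**
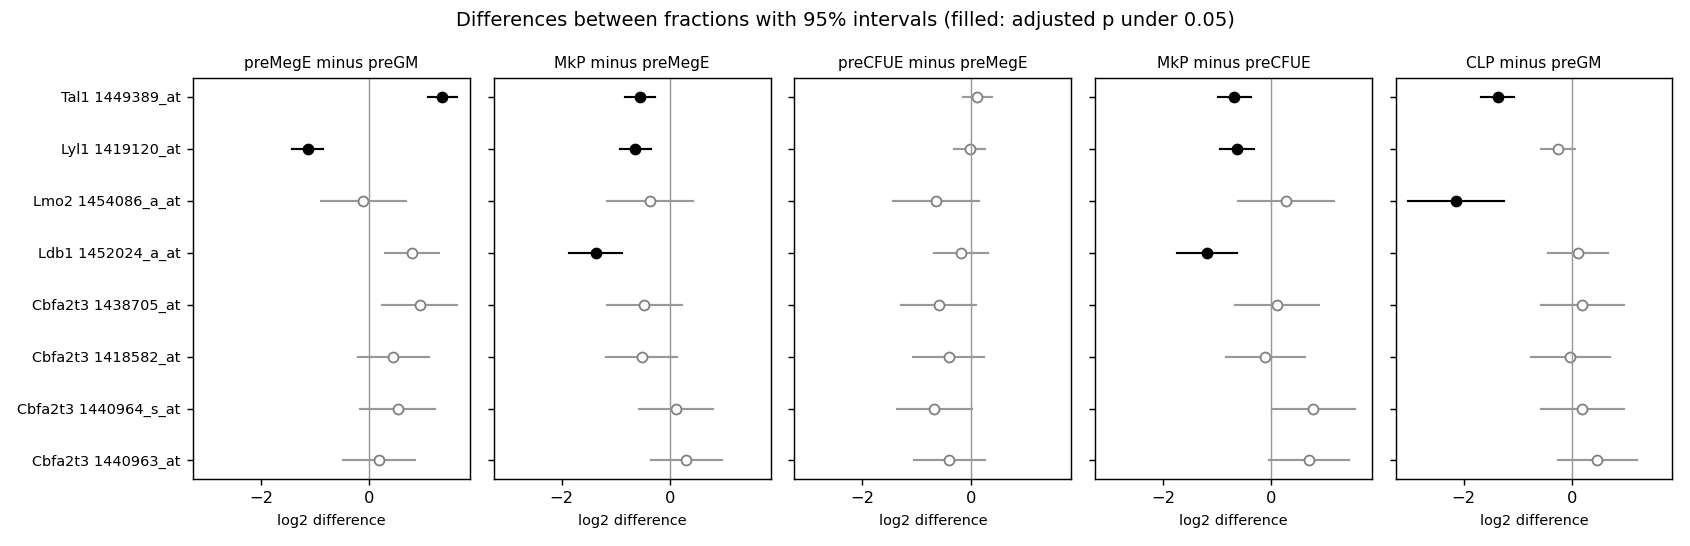
Log2 difference of each member probe set (vertical axis) in 5 comparisons between fractions, with the 95% interval of the limma fit, before any adjustment for multiple tests. Filled points passed at an adjusted p under 0.05: Tal1 lies to the right of 0 and Lyl1 to the left in preMegE minus preGM, Tal1, Lyl1 and Ldb1 lie to the left in both MkP panels, and no point is filled in preCFUE minus preMegE.

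Tal1, the helix-loop-helix factor at the centre of the complex, was low in lymphoid progenitors and high in the erythroid and megakaryocytic fractions. Its intensity was 56.1, 91.6 and 73.4 on the CLP arrays and 214, 244 and 183 on the preGM arrays. It read 568, 510.3, 535, 549 and 683 in preMegE, 391, 375 and 372 in MkP, and 673, 540.3 and 651 in preCFUE. Every CLP array lay below every preGM array, every preGM array below every MkP array, and every MkP array below every preMegE and preCFUE array, while preMegE and preCFUE overlapped.

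The Tal1 means were 622 ± 71.2 (SD, n = 3) in preCFUE, 569 ± 66.9 (n = 5) in preMegE, 379 ± 10.4 (n = 3) in MkP, 213.9 ± 30.7 (n = 3) in preGM and 73.7 ± 17.7 (n = 3) in CLP. Between preGM and preMegE it rose by 1.35 ± 0.13 (adjusted p = 7.89e-06), which is 2.55-fold on this scale. In MkP it was above preGM by 0.79 ± 0.14 (adjusted p = 0.00368) and below preMegE (-0.56 ± 0.13, adjusted p = 0.0180) and preCFUE (-0.68 ± 0.14, adjusted p = 0.00728). The step from preMegE to preCFUE was 0.12 ± 0.13, with a 95% interval of -0.15 to 0.40 (adjusted p = 0.869). Ordered by level, only the first pair of neighbours, preCFUE and preMegE, did not differ at the threshold.

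In CLP, Tal1 was lower than in preGM by a difference of -1.37 ± 0.14 (adjusted p = 3.85e-05), or -1.51 without CLP replicate 2 (adjusted p = 2.21e-05). Against preCFUE the CLP difference was -2.84 ± 0.14 (adjusted p = 7.23e-09), the largest of the 10 pairwise differences of Tal1, and -2.98 without that array. The lower level in MkP than in preMegE and preCFUE was the part that depended on scaling. After quantile normalization of the arrays it was -0.25 against preMegE (adjusted p = 0.294) and -0.27 against preCFUE (adjusted p = 0.290). Leaving out any 1 of the 3 MkP arrays also ended the call against preMegE (adjusted p from 0.0535 to 0.0730), with differences from -0.58 to -0.54.

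RefSeq (GRCm38.p6) lists a start for Tal1 at more than 1 place, and the 250 bases upstream of each are shown because Tal1 had the highest F statistic of the members and because GATA and Ets factors are its known regulators. Capitals mark a match on either strand to GATAA (the core of a GATA site), CANNTG (the E-box that Tal1 itself binds) or GGAAG (an Ets core). Window 1 is chr4:115056176-115056425 and window 2 is chr4:115057561-115057810, both on the plus strand.
Tal1 upstream window 1: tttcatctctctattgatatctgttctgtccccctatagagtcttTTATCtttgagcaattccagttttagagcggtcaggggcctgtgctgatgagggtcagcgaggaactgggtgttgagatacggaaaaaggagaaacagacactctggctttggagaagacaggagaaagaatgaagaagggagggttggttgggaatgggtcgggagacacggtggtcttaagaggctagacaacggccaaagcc
Tal1 upstream window 2: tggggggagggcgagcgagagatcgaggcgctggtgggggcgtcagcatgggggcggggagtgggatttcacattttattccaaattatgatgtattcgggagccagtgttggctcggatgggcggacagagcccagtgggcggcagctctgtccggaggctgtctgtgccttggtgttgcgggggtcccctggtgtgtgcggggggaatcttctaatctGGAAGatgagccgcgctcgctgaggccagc
Window 1 holds 1 GATAA match, read on the minus strand and so printed as TTATC, 205 to 201 bases before the start, and neither of the other motifs. Window 2 holds 1 GGAAG match 30 to 26 bases before the start and no other match. Of 32851 windows of this length upstream of RefSeq starts, 22.6% hold GATAA, 66.2% hold CANNTG and 64.1% hold GGAAG, so such matches are common and describe letters only.

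Lyl1, the close relative of Tal1 that binds the same partners, had nearly the opposite pattern, with its highest levels in preGM and CLP. The CLP arrays read 511, 688 and 562 and the preGM arrays 742, 641 and 720.4. In preMegE it read 281, 284, 335, 310.4 and 337, in MkP 196, 199 and 180.0, and in preCFUE 311, 233 and 392. All 6 CLP and preGM arrays exceeded all 11 arrays of the other fractions, and MkP held the 3 lowest values.

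The mean of Lyl1 was 701 ± 53.2 (n = 3) in preGM, 587 ± 91.1 (n = 3) in CLP, 312 ± 79.7 (n = 3) in preCFUE, 309 ± 26.5 (n = 5) in preMegE and 192 ± 10.3 (n = 3) in MkP. It fell from preGM to preMegE by 1.14 ± 0.13 (adjusted p = 6.44e-05), which is 2.21-fold. In CLP it was higher than in preMegE by 0.88 ± 0.13 (adjusted p = 0.000416), and by 0.77 without CLP replicate 2. Among neighbours in this order, preGM and CLP did not differ at the threshold (CLP minus preGM -0.26 ± 0.15, adjusted p = 0.267), nor did preMegE and preCFUE (-0.01 ± 0.13, 95% interval -0.30 to 0.27, adjusted p = 0.998).

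Lyl1 in MkP was lower than in preMegE (-0.65 ± 0.13, adjusted p = 0.00971) and lower than in preCFUE (-0.63 ± 0.15, adjusted p = 0.0150). Quantile normalization ended both calls, at -0.34 (adjusted p = 0.175) and -0.23 (adjusted p = 0.442). The call against preMegE was also lost without MkP replicate 3 (adjusted p = 0.0538). Against preCFUE it was lost without MkP replicate 3 (0.0626), without preCFUE replicate 1 (0.0558), without preCFUE replicate 3 (0.0671), and in a fit of only those arrays (0.0802). The difference of -1.79 ± 0.15 between MkP and preGM passed in all 27 alternatives (adjusted p = 2.88e-06 and, over the alternatives, at most 0.000546).

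The 250 bases upstream of the Lyl1 start, chr8:84701207-84701456 on the plus strand of GRCm38.p6, are printed for comparison with the Tal1 windows, with the same motifs in capitals.
Lyl1 upstream window: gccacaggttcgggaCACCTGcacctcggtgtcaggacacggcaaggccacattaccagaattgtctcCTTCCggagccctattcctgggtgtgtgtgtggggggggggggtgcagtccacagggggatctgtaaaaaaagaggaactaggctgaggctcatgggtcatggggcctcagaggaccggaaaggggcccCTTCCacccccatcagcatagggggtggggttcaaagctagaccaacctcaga
This window holds 1 E-box, CACCTG, 235 to 230 bases before the start, and 2 Ets cores on the minus strand, printed as CTTCC, at 182 to 178 and 53 to 49 bases before the start. It holds no GATAA. Of the other members, Ldb1 has 3 windows with 2 GATAA matches in all, both in the third, and Cbfa2t3 has 2 windows, of which the first holds 1 GATAA, 4 CANNTG and 3 GGAAG matches. Lmo2 is not in the table of upstream windows. No motif matches overlapped in any member's window.

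**Figure D2:**
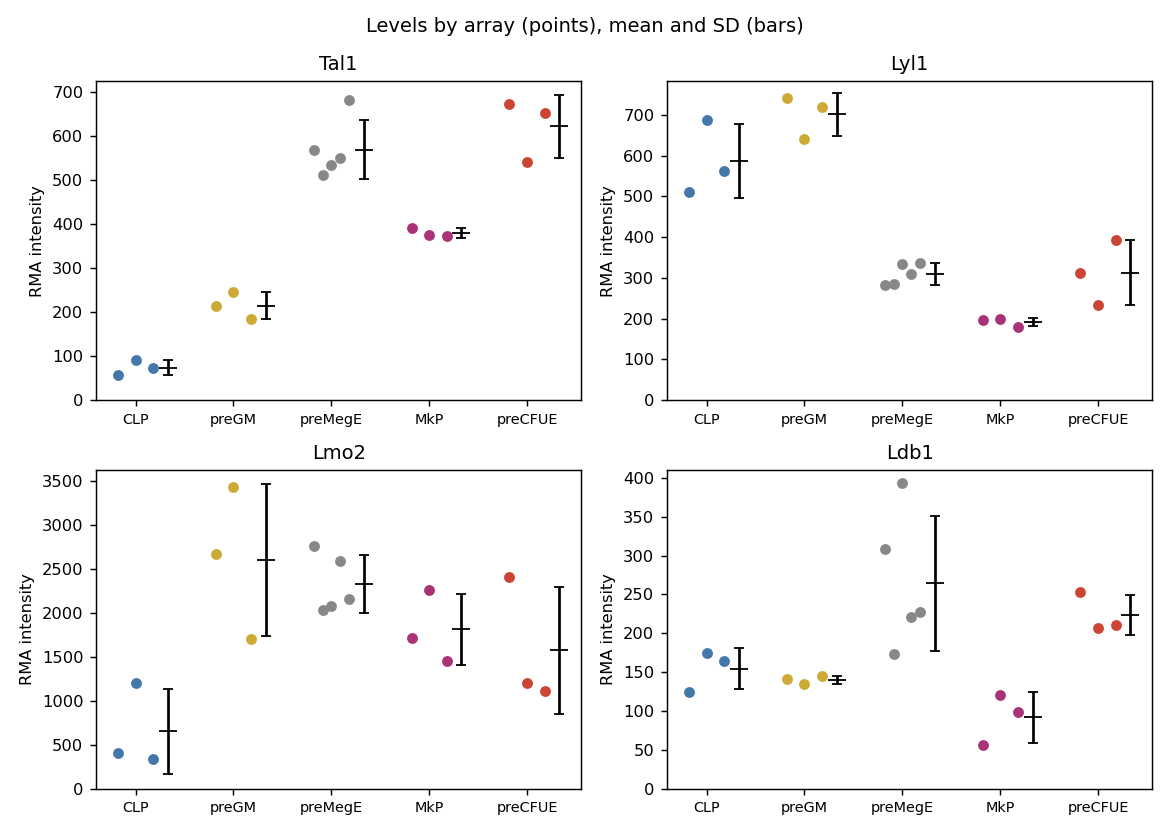
RMA intensity (linear vertical axes from 0) of Tal1, Lyl1, Lmo2 and Ldb1 on each array by fraction, with points for arrays in order of replicate number and bars for the mean and SD over 3 arrays, or 5 for preMegE. Tal1 climbs from CLP to preMegE and preCFUE, Lyl1 is high in CLP and preGM, Lmo2 is low in CLP except on 1 array at 1209.7, and Ldb1 is lowest in MkP.

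Lmo2, the bridging protein, was present at high intensity in all 4 myeloid and erythroid fractions and lower in CLP. Its CLP arrays read 409, 1209.7 and 341, and its preGM arrays 2671, 3431 and 1706. It read 2768, 2040.1, 2086, 2589 and 2159.9 in preMegE, 1721, 2260.4 and 1459.8 in MkP, and 2413, 1202 and 1115 in preCFUE. The high CLP value belongs to replicate 2, the array nearer to preGM, and it overlaps the preCFUE range. The Gapdh 3-prime over 5-prime log2 ratio, a sign of RNA shortening, was 5.12, 3.00 and 4.08 on the CLP arrays, lowest on replicate 2. It was 2.72, 3.15 and 3.94 on the preGM arrays and 2.85, 3.53 and 4.09 on the preCFUE arrays. In these fractions replicate 3, with the highest ratio, had the lowest Lmo2. In CLP, MkP and preMegE the array with the highest ratio was not the one with the lowest Lmo2. The array with the lowest ratio had the highest Lmo2 in CLP, MkP, preMegE and preCFUE, but not in preGM. The part of this ratio was not tested beyond the covariate fit given below.

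Mean Lmo2 intensity was 2602 ± 865 (n = 3) in preGM, 2328 ± 328 (n = 5) in preMegE, 1814 ± 408 (n = 3) in MkP, 1577 ± 726 (n = 3) in preCFUE and 653 ± 483 (n = 3) in CLP. CLP fell below preGM by a difference of -2.14 ± 0.41 (adjusted p = 0.00585), and by -2.69 ± 0.33 without CLP replicate 2 (adjusted p = 0.000172). Compared with preMegE the CLP difference was -2.03 ± 0.37 (adjusted p = 0.00178), with MkP -1.66 ± 0.41 (adjusted p = 0.0207) and with preCFUE -1.39 ± 0.41 (adjusted p = 0.0268). Without CLP replicate 2 these became -2.58, -2.21 and -1.94. With the Gapdh ratio as covariate all 4 differences were smaller and still passed, at -1.64 against preGM, -1.71 against preMegE, -1.52 against MkP and -1.02 against preCFUE (adjusted p from 0.000332 to 0.0180). In a fit of only the 2 fractions compared, the call of CLP against preGM was lost (adjusted p = 0.147), as were those against MkP (0.191) and preCFUE (0.193). The call against MkP was also lost without CLP replicate 1 (0.0749), CLP replicate 3 (0.0982), MkP replicate 1 (0.0578) or MkP replicate 2 (0.0855). That against preCFUE was lost without CLP replicate 1 (0.103), CLP replicate 3 (0.129) or preCFUE replicate 1 (0.136), and after quantile normalization (0.0570).

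Among the 4 other fractions no neighbours in the order of Lmo2 levels differed at the threshold. The difference of preMegE from preGM was -0.11 ± 0.37 with a 95% interval of -0.90 to 0.67 (adjusted p = 0.977). From preMegE to MkP it was -0.37 ± 0.37 (adjusted p = 0.632) and from preMegE to preCFUE -0.64 ± 0.37 (adjusted p = 0.524). The SD of Lmo2 was 74.0% of the mean in CLP and 46.0% in preCFUE, against 14.1% in preMegE.

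Ldb1, the adaptor that dimerises and links complexes, was lowest in MkP. Its arrays read 124, 175 and 164 in CLP, 141, 135 and 145 in preGM, and 56.5, 120.1 and 98.9 in MkP. In preMegE they read 308, 173, 393, 220.3 and 227, and in preCFUE 253, 207 and 210.0. Every MkP array was below every array of the other 4 fractions, and every preMegE array was above every preGM array. Of all probe sets, 16.3% did not overlap in MkP against preMegE, 31.3% in MkP against preCFUE and 10.9% in preMegE against preGM. In the limma fit MkP did not differ at the threshold from preGM (MkP minus preGM -0.58 ± 0.26, adjusted p = 0.207). Nor did it differ from CLP (CLP minus MkP 0.70 ± 0.26, adjusted p = 0.131).

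The mean of Ldb1 was 91.8 ± 32.4 (n = 3) in MkP, 140.3 ± 4.98 (n = 3) in preGM, 154 ± 26.6 (n = 3) in CLP, 223 ± 25.9 (n = 3) in preCFUE and 265 ± 86.9 (n = 5) in preMegE. It fell from preMegE to MkP by 1.38 ± 0.23 (adjusted p = 0.00226), which is 2.59-fold, and was lower in MkP than in preCFUE (-1.19 ± 0.26, adjusted p = 0.00888). Both differences passed in all 27 alternatives, with adjusted p up to 0.0256 and 0.0446. The rise from preGM to preMegE, 0.79 ± 0.23, missed the threshold (adjusted p = 0.0719), although its arrays did not overlap. It passed in 7 of the 27 alternatives, among them quantile normalization (0.88, adjusted p = 0.00907), without preMegE replicate 2 (0.92, adjusted p = 0.0271) and without MkP replicate 1 (adjusted p = 0.0383). No pair of neighbours in the order of Ldb1 levels differed at the threshold.

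Beside the lower levels in MkP, the erythroid marker sum was 922 to 1540 there against 7947 to 12432 in preMegE, and the 75th percentile of intensity was also low, as given above. The part of either in the differences was not tested beyond the quantile normalization given for each gene. Of 6 endothelial markers, which matter because Tal1 and Lmo2 also act in endothelium, 4 had means below 32 in MkP and in preMegE and all 6 did in the other fractions. Their summed intensity was 162 to 308 in MkP, 155 to 199.6 in preMegE and 89.1 to 111 elsewhere.

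For Cbfa2t3, the corepressor, none of the 10 pairwise differences between fractions passed for any of its 4 probe sets. In the 5 pairs not yet given, 6.55% of all probe sets passed in MkP against preGM, 8.48% in preCFUE against preGM, 8.35% in CLP against MkP, 16.7% in CLP against preMegE and 20.3% in CLP against preCFUE. Its brightest probe set, 1438705_at, read 510.3, 309.5 and 650.2 in CLP, 273, 345 and 713 in preGM, and 657, 591, 1070.0, 739 and 1017 in preMegE. It read 686, 456 and 577 in MkP and 371, 536 and 714 in preCFUE. The preMegE arrays were high as a group, but 1 array each of CLP, preGM, MkP and preCFUE reached into their range.

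For this probe set the rise from preGM to preMegE was 0.93 ± 0.32 (adjusted p = 0.158), and it passed without preGM replicate 3 (1.32, adjusted p = 0.0252). Its mean was 815 ± 216 (n = 5) in preMegE and 444 ± 236 (n = 3) in preGM. The other probe sets gave 0.44 ± 0.30 (1418582_at), 0.52 ± 0.32 (1440964_s_at) and 0.18 ± 0.31 (1440963_at) for the same comparison, so all 4 values were above 0 and none passed. With limma array weights, which count noisier arrays less, 1438705_at (1.21, adjusted p = 0.00175) and 1440964_s_at (0.73, adjusted p = 0.0210) did pass.

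The 4 probe sets gave unlike values in the megakaryocytic arm. In MkP against preCFUE, 1440964_s_at gave 0.78 ± 0.36 (adjusted p = 0.215) and 1440963_at 0.69 ± 0.34 (adjusted p = 0.251), with arrays that did not overlap, whereas 1438705_at gave 0.11 ± 0.36 and 1418582_at -0.11 ± 0.34. The first 2 of these name the same source sequence in the platform annotation, so they are not independent readings. Their arrays read 241, 209 and 254 in MkP and 101, 155 and 139 in preCFUE for 1440964_s_at, and 92.0, 82.8 and 116 against 47.4, 58.3 and 54.9 for 1440963_at. In a fit of only these 6 arrays both passed (adjusted p = 0.0311 and 0.0225).

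**Figure D3:**
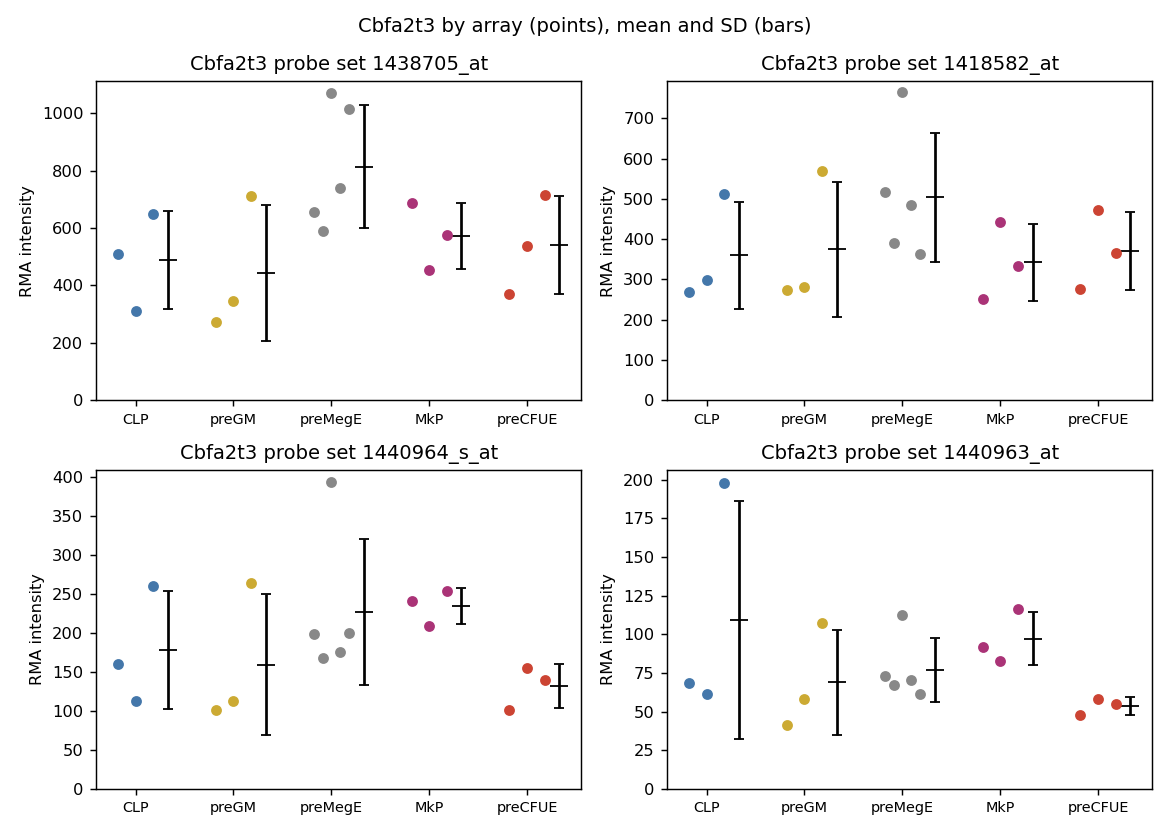
RMA intensity (linear vertical axes from 0) of the 4 Cbfa2t3 probe sets on each array by fraction, with points for arrays in order of replicate number and bars for the mean and SD (n = 5 in preMegE, 3 elsewhere). Replicate 3 is the highest array of preMegE in all 4 panels, at 1070.0, 765, 393 and 113, and the arrays of most fractions overlap.

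Ratios were taken as differences of log2(intensity + 16) between 2 members of the same array, so the scaling of an array cancels in part, not fully, because of the added 16. Tal1 over Lyl1 sorted the 17 arrays into 3 separate ranges. Relative to the preGM mean, the log2 ratio was -1.22 to -1.05 in CLP, -0.24 to 0.31 in preGM and 2.30 to 2.81 over the 11 preMegE, MkP and preCFUE arrays. Fraction means were -1.11 ± 0.10 (SD, n = 3) in CLP, 2.49 ± 0.14 (n = 5) in preMegE, 2.58 ± 0.063 (n = 3) in MkP and 2.63 ± 0.24 (n = 3) in preCFUE. The fractions differed in a permutation test of the F statistic over 100000 resamples of the array labels (p = 2e-05, adjusted over 3 ratios 6e-05). The MkP arrays, lower in both genes than the preMegE and preCFUE arrays, had ratios within the range of those fractions. The spread over fraction means was 3.74, and at least 3.12 under the alternatives tried, the lowest with a pseudocount of 64.

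Lmo2 over Ldb1 also differed between fractions (permutation p = 0.00079, adjusted 0.00119). Its mean relative to preGM was -2.25 ± 0.86 in CLP, -0.90 ± 0.45 in preMegE, 0.10 ± 0.45 in MkP and -1.36 ± 0.46 in preCFUE. All MkP arrays (-0.33 to 0.57) lay above all preMegE arrays (-1.65 to -0.55) and all preCFUE arrays (-1.69 to -0.84). For Tal1 over Cbfa2t3 (permutation p = 0.00319, the same after adjustment) the means were -1.56 ± 0.74 in CLP, 0.42 ± 0.32 in preMegE, 0.34 ± 0.26 in MkP and 1.13 ± 0.52 in preCFUE. The preGM arrays of this last ratio ran from -0.98 to 0.56 and overlapped preMegE and MkP. Both tests passed in every alternative run on the ratios, which did not include the Gapdh ratio as covariate.

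**Figure D4:**
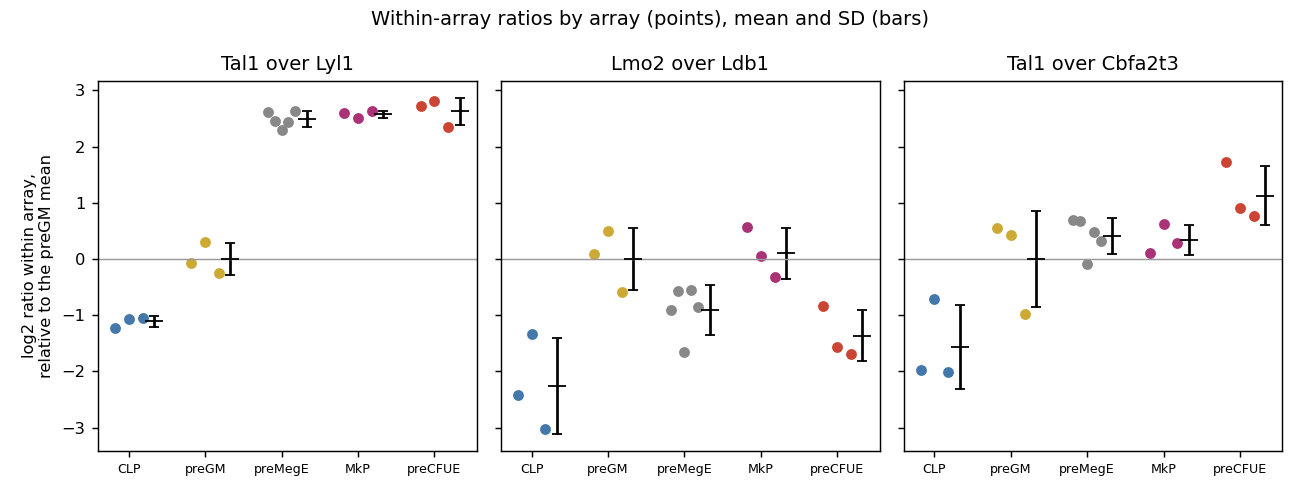
Log2 ratio of 2 members within each array (vertical axis), relative to its preGM mean at 0, for Tal1 over Lyl1, Lmo2 over Ldb1 and Tal1 over Cbfa2t3 by fraction, with points for arrays and bars for mean and SD (n = 5 in preMegE, 3 elsewhere). In the first panel the CLP arrays lie at -1.22 to -1.05 and the 11 preMegE, MkP and preCFUE arrays at 2.30 to 2.81, with no overlap with preGM.

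The partners of the complex were read from a list of 30 genes, all measured, with the brightest probe set of each. Against preGM, 5 rose and 3 fell in preMegE, where 2.53% of all genes rose and 5.32% fell (7.85% together), and the list median was -0.03 beside 0.01 over all genes. The 5 that rose were Gata1, Gata2, Gfi1b, Klf1 and Zfpm1, and the 3 that fell were Erg, Lmo1 and Tcf4, while 22 did not pass. The 3 became 6 with the Gapdh 3-prime over 5-prime ratio as covariate and 5 with array weights. Lmo1 was dim, at 26.9 ± 6.24 in preGM and 12.6 ± 4.91 in preMegE. The latter lies below the median intensity of the preMegE arrays (16.04 to 17.7), so the size of its fall is not resolved. Gata1, the GATA factor of the erythroid complex, rose by 3.54 ± 0.14 (89.2 ± 1.88 to 1219 ± 168, adjusted p = 1.38e-09). Klf1, an erythroid activator that joins it, rose by 3.85 ± 0.21 (129.9 ± 17.01 to 2142 ± 611). The brightest partner that did not pass was Hdac2, a histone deacetylase, at 0.10 ± 0.22.

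In preCFUE against preMegE, 0 partners rose and 4 fell (4.19% and 3.52% of all genes, 7.72% together; median 0.00 beside 0.01): Erg, Fli1, Gata2 and Runx1. Gata2, the GATA factor of early progenitors, fell by 2.47 ± 0.20 (1751 ± 189 to 309.2 ± 88.5) and Erg, an Ets factor of stem cells and megakaryocytes, by 2.51 ± 0.22 (176 ± 64.3 to 16.5 ± 5.63). Klf1 there was at 0.48 ± 0.21 (adjusted p = 0.298). The 16.5 of Erg in preCFUE lies within the median intensities of all probe sets on those arrays (15.96 to 17.1), so the size of its fall is not resolved beyond that level. The 0 that rose became 1 without preMegE replicate 3 and 3 with array weights. In MkP, 2 partners rose (Fli1, Runx1) and 2 fell (Gata1, Klf1) against preMegE (3.56% and 5.5% of all genes, 9.05% together; median -0.14 beside 0.01). Fli1, the Ets factor of megakaryocytes, rose by 1.83 ± 0.30 (160.4 ± 53.0 to 608 ± 180) and Klf1 fell by 2.87 ± 0.21 (2142 ± 611 to 279.8 ± 85.8). Gata2, the most abundant partner that did not pass, gave -0.66 ± 0.20 (adjusted p = 0.0696), and it passed in 12 alternatives. The 2 partners that rose became 5 after quantile normalization. They became 1 without any 1 of preMegE replicates 1, 2 and 4 or MkP replicates 1, 2 and 3, with an SD over mean above 0.5, and with a replicate block. The 2 that fell became 5 without CLP replicate 2, with array weights and in a fit of only the fractions compared. That count was 4 without CLP replicate 3, with a pseudocount of 64, a minimum mean of 16 or 1 probe set per gene, and 1 with the replicate block.

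Set directly against preCFUE, MkP had 5 partners higher and 4 lower (4.91% and 9.3% of all genes, 14.2% together; median -0.12 beside 0.01). Fli1 was higher by 3.41 ± 0.33 and Klf1 lower (-3.35 ± 0.23), the largest changes of the list. In CLP against preGM, 1 partner was higher and 9 lower (4.17% and 10.6% of all genes, 14.8% together; median -0.32 beside 0.00). Gata2 (51.6 ± 18.5 against 335 ± 89.5, difference -2.38 ± 0.22) and Zfpm1, the GATA cofactor Fog1 (43.7 ± 5.72 against 148 ± 50.1, difference -1.42 ± 0.23), were the largest of these, and Tcf4 was the 1 that was higher. Without CLP replicate 2 the counts were 1 and 12, with Gata2 at -2.21, Zfpm1 at -1.42 and Hdac2, not called with all arrays (-0.48 ± 0.24), at -0.83 (adjusted p = 0.00570). The 9 became 5 without preGM replicate 1 or 2 and 3 in a fit of only those fractions, where Zfpm1 missed the threshold (adjusted p = 0.0587). The 1 became 0 without CLP replicate 3 or preGM replicate 1 or 2, in that fit, and with the Gapdh ratio as covariate.

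**Figure D5:**
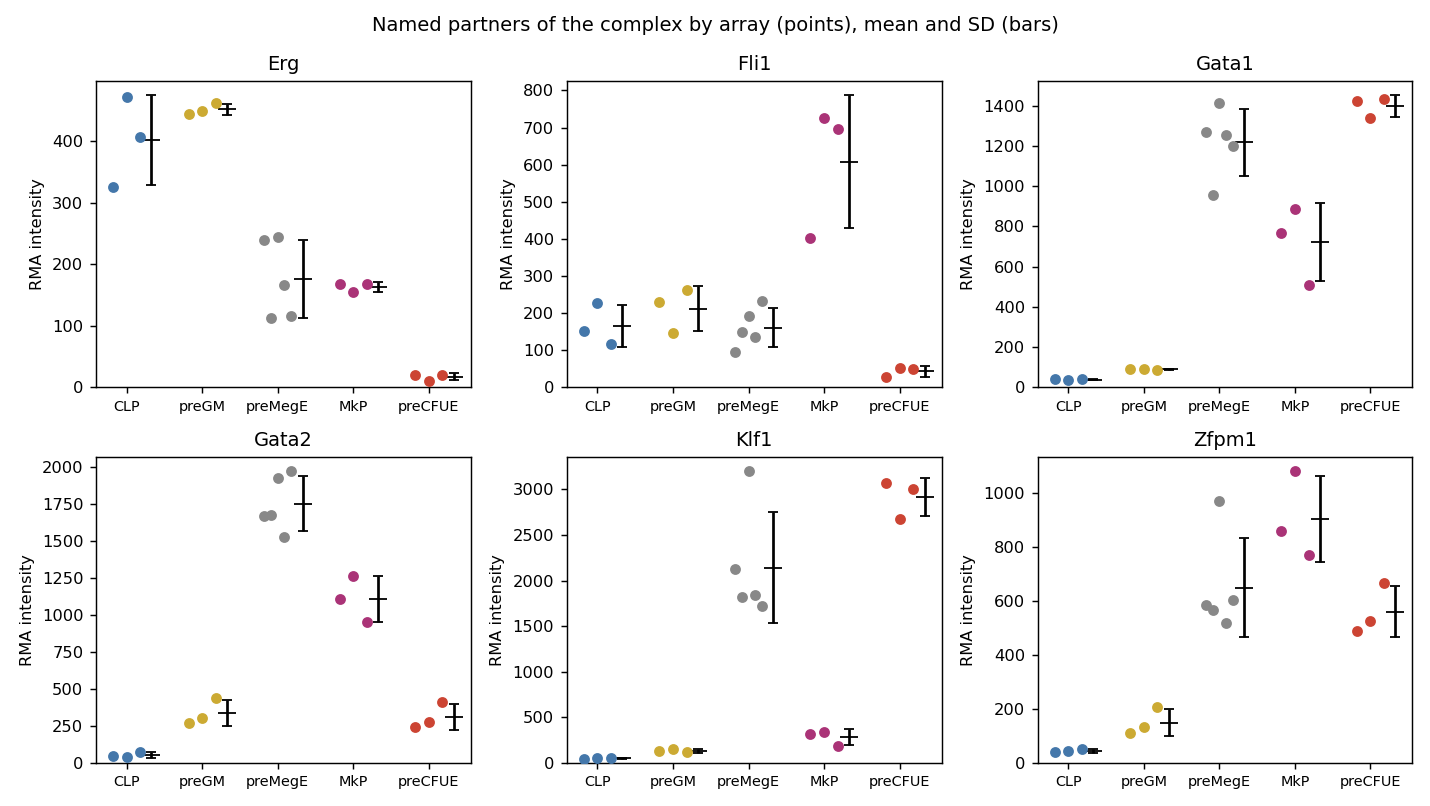
RMA intensity (linear vertical axes from 0) of 6 partners of the complex, Erg, Fli1, Gata1, Gata2, Klf1 and Zfpm1, on each array by fraction, with points for arrays and bars for mean and SD (n = 5 in preMegE, 3 elsewhere). Gata1 is high in preMegE, MkP and preCFUE, Gata2 is high in preMegE and MkP but 309.2 on average in preCFUE, Klf1 is high in preMegE and preCFUE, and Fli1 is highest in MkP.

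Of 21 genes known as targets of the complex in blood cells, 17 were measured. Unless all 17 are named, counts and medians given here are over the 15 left without Kit and Itga2b, which were used in the sort. The list shares Gata1, Gfi1b, Klf1 and Runx1 with the partners. In preMegE against preGM, 6 of 15 rose and 1 fell, where 2.53% and 5.32% of all genes did (median 0.07 beside 0.01, or 0.37 with Kit and Itga2b kept), with Epor, Gp9 and Nfe2 among those that rose, and Mef2c, the most abundant that did not pass, at -0.17 ± 0.20. In preCFUE against preMegE, 0 rose and 6 fell, beside 4.19% and 3.52% of all genes (median 0.01 beside 0.01), among them Mef2c (-2.30 ± 0.20, 766 ± 199 to 139.4 ± 20.9), a factor of lymphoid and megakaryocytic cells. Over all 17, the 0 became 1 without preMegE replicate 3 and 2 with array weights. In MkP against preMegE, 3 rose and 4 fell, beside 3.56% and 5.5% of all genes (median -0.05 beside 0.01). In MkP against preCFUE 3 were higher and 4 lower, beside 4.91% and 9.3% (median 0.10 beside 0.01), with Mef2c higher by 3.43 ± 0.22. In CLP against preGM, 1 was higher and 4 lower, beside 4.17% and 10.6% of all genes (median 0.07 beside 0.00, or -0.08 with Kit and Itga2b kept), among them Nfe2, a partner factor of globin and platelet genes, at -2.20 ± 0.24 and at -2.39 without CLP replicate 2. Over all 17, the 1 higher gene, Cdkn1a, became 4 without CLP replicate 2 or with array weights. The count was 3 with a pseudocount of 1 or 1 probe set per gene. It was 2 without preMegE replicate 1, 2 or 3 or MkP replicate 1 or 2. It was also 2 with quantile normalization, the Gapdh ratio as covariate, a minimum mean of 16 or an SD over mean above 0.5.

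The E proteins that pair with Tal1 and Lyl1, and the Id proteins that block this pairing, formed a list of 7 genes, of which Tcf3, Tcf4 and Tcf12 are also among the partners and so are counted there too. From preGM to preMegE, 0 rose and 2 fell, beside 2.53% and 5.32% of all genes (median -0.12 beside 0.01): Tcf4, an E protein (704 ± 155 to 317 ± 38.3, difference -1.10 ± 0.14), and Id2 (42.2 ± 11.02 to 11.1 ± 3.73, difference -1.10 ± 0.19). The 11.1 of Id2 in preMegE lies below the median intensity of those arrays (16.04 to 17.7), so the size of its fall is not resolved. Tcf12, the most abundant member that did not pass, gave -0.12 ± 0.26. None of the 7 passed in the limma fit between preMegE and either later fraction (medians 0.06 for MkP and 0.00 for preCFUE), where 9.05% and 7.72% of all genes did, and 1 rose in MkP without preMegE replicate 1. Tcf4 was the 1 called in MkP against preCFUE (0.56 ± 0.16, adjusted p = 0.0394; 14.2% of all genes passed) and in CLP against preGM (0.67 ± 0.16, adjusted p = 0.0195; 14.8% passed). Its first call was lost without any 1 of MkP replicates 1, 2 and 3, preCFUE replicates 1 and 3, preMegE replicates 1 and 4 or preGM replicate 2. Tcf4 also missed the threshold there with median centring (adjusted p = 0.0597), the Gapdh ratio as covariate (0.0507) and a replicate block (0.0759). The same held in a fit of only the MkP and preCFUE arrays (0.0641). Its second was lost without CLP replicate 3 (adjusted p = 0.05001), preGM replicate 1 (0.0921) or preGM replicate 2 (0.0570), with the Gapdh ratio as covariate (0.0513) and in a fit of only those arrays (0.152). Without CLP replicate 2, Tcf4 passed at 0.61 (adjusted p = 0.0287) and Tcf12 was also called, lower in CLP (-0.86, adjusted p = 0.0348).

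For each member the 3 genes with the most similar pattern were found by Pearson correlation of log2(intensity + 16) over the 17 arrays, among 7034 genes of mean intensity 64 or more. The 17 points share fractions and arrays, so r describes likeness only. Nearest to Tal1 were Vamp5 (r = 0.987), Acss2 (0.978) and Cks2 (0.972). Vamp5 averaged 2056 in preMegE, 1984 in preCFUE, 789 in MkP, 354 in preGM and 63.98 in CLP, the same order as Tal1 except that preMegE and preCFUE changed places. Nearest to Lyl1 were St8sia4 (0.954), Selplg (0.951) and Mpnd (0.939), and Selplg averaged 1057 in CLP, 983 in preGM, 378 in preMegE, 293 in preCFUE and 205 in MkP. Nearest to Lmo2 were Cnih4 (0.969), Rab28 (0.951) and Tmco1 (0.947). Ldb1 was most like Tut7 (0.888), Shprh (0.878) and Lpin1 (0.877), and Cbfa2t3 (1438705_at) most like Cmip (0.883), Crtc3 (0.870) and Ripor1 (0.830).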

How the data were processed

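RNA of 17 sorted samples was hybridised to Affymetrix 3-prime arrays after more than 1 round of amplification, per the series' design text. The deposited table holds 1 linear RMA intensity for each probe set on each array, and RMA is named by the submitters' processing notes with no version. The design text speaks of scaling to a common median, which is not visible in the deposited values. Amplification shortens RNA toward its 3-prime end, so the Gapdh 3-prime over 5-prime log2 ratio was computed per array. Its mean was 3.27 to 4.07 over the fractions. Arrays give no read depth, and their number limits the precision.

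Groups and replicate numbers come from the titles. A free-text description naming another gate was not used. All 45037 probe sets that are not controls (64 were left out) were fitted as log2(intensity + 16) in limma 3.58.1 under R 4.3.3 with 1 term per fraction, with Benjamini-Hochberg adjustment over all of them. Adding 16 understates changes of dim probe sets. The procedure was tested on simulated data with changes in preMegE, placed on brighter probe sets. In preMegE minus preGM it called 88% of 100 changes of 2 on the log2 scale and 37% of 100 changes of 1. Changes of 1 were thus often missed in that setting. No other probe set was changed there, whereas 2346 of 45037 (5.21%) passed this comparison in the data. With so few changes the adjustment is stricter, so these shares do not carry over to the data. Ratios within arrays were tested by permuting array labels in Python 3.11.15 with numpy 2.4.6. Tables were handled with the data.table package (1.17.8) and pandas 2.3.3, and plots drawn with matplotlib 3.10.9.

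The members and lists were chosen with earlier results of these data known. Lists held 30 partners, 21 targets (4 not analysed here) and 7 E and Id proteins, at 1 probe set (highest mean) for each of 18193 genes. Marker lists covered 10 cell types. Of the lists not in the report, the summed intensity of macrophage markers was 72.2 to 111 with all 6 below 32, of mast cell and basophil markers 82.6 to 348, of mature B and plasma cell markers 52.9 to 541, of T and NK markers 110.1 to 633 and of neutrophil markers 72.3 to 1526, the last varying most within preGM, preMegE and MkP. Named list genes were, per comparison, the most abundant that did not pass and the 2 that passed with the largest change. Further genes named to complete a count of calls, among them Gfi1b, Lmo1, Runx1, Epor, Gp9 and Cdkn1a, were chosen after their values were seen. Upstream sequences and motif counts come from RefSeq, GRCm38.p6, for 4 of the 5 members and 8 windows. Alternatives were pseudocounts of 1 and 64, quantile normalization, median centring, a minimum mean of 16, an SD over mean above 0.5, array weights, 1 probe set per gene, the Gapdh ratio as covariate, only the fractions compared, a replicate block, and each array left out in turn.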

Additional observations from a re-analysis of the deposited data

Results flagged for a closer look

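On 2 of the 4 Cbfa2t3 probe sets, 1 preMegE array lay far from the other 4. Replicate 3 read 393 for 1440964_s_at, where the others read 168 to 200.5, and 113 for 1440963_at, where the others read 61.2 to 73.0. Both probe sets name the same source sequence. Of the 8 member probe sets examined in the 5 preMegE arrays these were the 2 so marked, and chance marks about 1 in 20 such groups. The same array had the highest 75th percentile of intensity of all 17 (74.4), and its part in these values was not tested. Only preMegE has enough arrays for this examination.

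For 3 members the step from preMegE differed between its megakaryocytic and its erythroid arm, by the test of MkP against preCFUE. The difference was -0.68 ± 0.14 for Tal1, -0.63 ± 0.15 for Lyl1 and -1.19 ± 0.26 for Ldb1, each lower in MkP on 3 of 3 arrays than on any preCFUE array. Of all probe sets, 10.1% passed in this comparison and 31.3% had arrays that did not overlap. The Tal1 and Lyl1 values missed the threshold after quantile normalization, whereas Ldb1 still passed (-0.88, adjusted p = 0.0147).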

How the results depend on the processing

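Of 23 member differences that passed, 15 passed in the same direction under every alternative that gave a value and 0 reversed. All 3 within-array ratios passed in the alternatives run on them, which were pseudocounts of 1 and 64, quantile normalization and each array left out. Tal1 over Cbfa2t3 was also run, and passed, with the mean over the Cbfa2t3 probe sets. The other alternatives, among them the Gapdh ratio as covariate, were not run on the ratios. Counts of member probe sets moved as follows. The filter on SD over mean above 0.5 keeps Tal1 alone among the 8 (its ratio was 0.547), so that the other members have no value there, and which by construction left 1 call in the test over 5 fractions and 1 each in preMegE minus preGM, MkP minus preMegE, MkP minus preCFUE and CLP minus preGM. Quantile normalization left 1 call in MkP minus preMegE and 1 in MkP minus preCFUE, array weights gave 5 in preMegE minus preGM, and a fit of only the fractions compared left 1 in CLP minus preGM, where the cause was not tested. Leaving out 1 array gave 1 to 3 calls in MkP minus preMegE, the 1 without MkP replicate 3. For that comparison the replicate block also left 1 call, Ldb1, with Tal1 at -0.48 (adjusted p = 0.143) and Lyl1 at -0.60 (adjusted p = 0.0981). The block rests on numbers that the samples only share. Deviations of same-numbered arrays had a mean correlation of 0.014 over 30 pairs, 12 of them over 0.1. For arrays of different number it was -0.009 over 60 pairs, 23 of them over 0.1.

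Reversals touched only differences that did not pass. With the 3-prime over 5-prime ratio as covariate, Lmo2 in preMegE minus preGM became 0.079, Cbfa2t3 1438705_at became -0.060 in MkP minus preCFUE and -0.19 in CLP minus preGM, and 1440964_s_at became -0.031 in CLP minus preGM. Lyl1 in preCFUE minus preMegE became 0.00053 with median centring, 0.057 with array weights and 0.029 with the replicate block. Under quantile normalization Lyl1 in CLP minus preGM became 0.17, and 1418582_at became 0.30 in MkP minus preCFUE and 0.46 in CLP minus preGM (0.15 with array weights). With the block 1440964_s_at in MkP minus preMegE became -0.017. Over arrays left out in turn, Lmo2 in preMegE minus preGM ran from -0.39 to 0.11, 1440963_at there from -0.068 to 0.48, and Lyl1 in preCFUE minus preMegE from -0.19 to 0.17. In MkP minus preCFUE, 1438705_at ran from -0.13 to 0.33 and 1418582_at from -0.31 to 0.079. In CLP minus preGM, 1438705_at ran from -0.081 to 0.59, 1418582_at from -0.31 to 0.30 and 1440964_s_at from -0.10 to 0.59.

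Running the alternatives on the list genes, and leaving Kit and Itga2b out of the targets, was chosen after seeing the data. Of 30 list counts 16 stayed within 1.5 times. Of 35 differences of named genes, 19 kept their call and direction, 3 lost a call under some alternative (Tcf4 in MkP minus preCFUE and in CLP minus preGM, Zfpm1 in CLP minus preGM), 8 gained one (among them Klf1 in preCFUE minus preMegE, adjusted p = 0.0431 with array weights) and 5 reversed, all not passed. Hdac2 in preMegE minus preGM ran from -0.038 to 0.20 with arrays left out. Tcf12 became 0.29 in MkP minus preCFUE and 0.13 in MkP minus preMegE under quantile normalization, 0.040 in preCFUE minus preMegE with array weights and 0.034 in preMegE minus preGM with the replicate block. With arrays left out it ran from -0.28 to 0.0073 in MkP minus preMegE and from -0.16 to 0.13 in preCFUE minus preMegE.

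The share of higher among all calls moved with scaling. It was 40.8% in MkP minus preMegE and 55.1% after quantile normalization, 34.4% and 48.4% in MkP minus preCFUE, and 36.1%, 47.3% and, with median centring, 19.8% in CLP minus preGM. With 3 arrays in most fractions, members not called may still differ within their intervals.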
